A study of Homo sapiens with 9 samples.

Results

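The 6 libraries described here come from 3 established human breast cancer cell lines, each sequenced once under the label shEZH2 and once as a control. In the order used for values throughout, the lines are MDA-MB-231 (the first), MDA-MB-436 (the second) and MDA-MB-453 (the third). They were chosen by the deposited column names, from 9 libraries in all, and each library labelled shEZH2 was paired with the control of the same line. Of 58037 genes in the table, 12258 reached 1 RPKM (reads per kilobase of gene, scaled to the reads of the library) in at least 3 of these 6 libraries and were tested. The other 3 libraries carry the label GSK343, a small-molecule inhibitor of the EZH2 enzyme. RNA sequencing was done on total RNA from cells grown in DMEM with serum, with 1 library for each line and condition.

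shEZH2 denotes a short hairpin RNA aimed at the EZH2 transcript. The controls are described as untreated in the sample labels, while their column names read shControl. The sources used here leave it unclear whether a control hairpin was present, so a response to the hairpin delivery and a response to loss of EZH2 cannot be told apart. The comparison asks how gene expression in the 3 lines differs when EZH2 is targeted by knockdown.

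EZH2 is the methyltransferase of Polycomb repressive complex 2 (PRC2). The complex also needs SUZ12 and EED, and EZH1 can take the place of EZH2. PRC2 places methyl groups on lysine 27 of histone H3, a mark of silenced genes that covers HOX clusters and developmental transcription factors in many cells. EZH2 is often abundant in triple-negative breast cancer, and it is known for repressing tumour suppressor genes there.

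The deposited values correspond to 16112000 to 18283000 reads per library. Genes above 0 numbered 22975, 23604 and 23900 in the controls, and 24998, 27230 and 26726 under shEZH2. The libraries of the third line had less of a profile of their own. In the controls 25.2% of abundant genes in the MDA-MB-453 library lay over 25% outside the range set by the other lines. The same share was 42.9% in the first line and 46.4% in the second. Under shEZH2 the shares were 0.332% for that line and 51.9% and 53.4% for the others. Fitted by non-negative least squares as a blend of the other lines, the MDA-MB-453 library took weights of 0.451 and 0.474 in the control and 0.557 and 0.474 under shEZH2. Whether the third line is an independent replicate was not tested, and each statement on 3 lines carries that limit. The luminal secretory gene PIP was listed at 0 in all 6 libraries. Counts are therefore given with and without the libraries labelled MDA-MB-453. Of 15 leukocyte markers 2 were tested and both rose with all lines, CD14 (0.73, adjusted p = 0.0296) and LAPTM5 (0.74, adjusted p = 0.0305), and 0 passed without MDA-MB-453. The summed level of the list was 7.17 to 37.4 RPKM in controls and 10.7 to 81.2 under shEZH2, while CD3E and MS4A1 were listed at 0 in all 6 libraries and the pan-leukocyte gene PTPRC was at most at 0.203. In MDA-MB-231, where these genes were highest, LAPTM5 went from 30.2 to 66.4 RPKM and CD14 from 5.79 to 12.5. The libraries are labelled as cell lines, and whether any leukocytes were present was not tested. In such bulk RNA, fewer cells of a type and less RNA per cell cannot be told apart.

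EZH2 itself differed from the control in 2 of the lines more than in the other. EZH2 (ENSG00000106462.10, GRCh38, chromosome 7, 148807383 to 148884321, minus strand) was at 27.4, 38.9 and 42.3 RPKM in the controls (mean 36.2 ± 7.82 SD, n = 3). It was at 16.4, 37.4 and 16.2 RPKM under shEZH2 (mean 23.3 ± 12.2 SD, n = 3). The MDA-MB-436 library labelled shEZH2 was within the range of the controls, and the groups overlapped. On the scale of log2(RPKM + 1) the changes were -0.71, -0.06 and -1.33. The fitted log2 fold change was -0.70 ± 0.46, where ± gives the half-width of the 95% confidence interval here and below, and it missed the threshold (adjusted p = 0.0533, limma). Without the libraries labelled MDA-MB-453 it was -0.38 (adjusted p = 0.354).

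The partner subunits did not pass either. SUZ12 had a log2 fold change of -0.17 ± 0.37 (adjusted p = 0.56), EED one of -0.16 ± 0.34 (adjusted p = 0.544) and EZH1 one of 0.33 ± 0.36 (adjusted p = 0.213). Among 11 tested PRC2 core and accessory genes, 1 rose and 1 fell, where 8.42% of all tested genes rose and 2.46% fell. PHF19, a Polycomb-like subunit that guides the complex to CpG islands, was at 41.7, 47.6 and 36.1 RPKM in controls and 25.1, 25 and 23.8 under shEZH2. All 3 shEZH2 libraries were below all 3 controls (log2 fold change -0.73 ± 0.29, adjusted p = 0.00675). Its relative PHF1 went the other way, from 6.89, 3.3 and 4.26 to 11.5, 5.34 and 7.66 RPKM, with overlapping groups (log2 fold change 0.65 ± 0.30, adjusted p = 0.0125). Neither PHF19 nor PHF1 passed without the libraries of the third line (adjusted p = 0.0698 and 0.122) or the first (0.0594 and 0.0826). PHF19 also missed the threshold without MDA-MB-436 (0.0615), and PHF1 without the shEZH2 library of the first line (0.0795) or the third (0.0636).

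**Figure D1:**
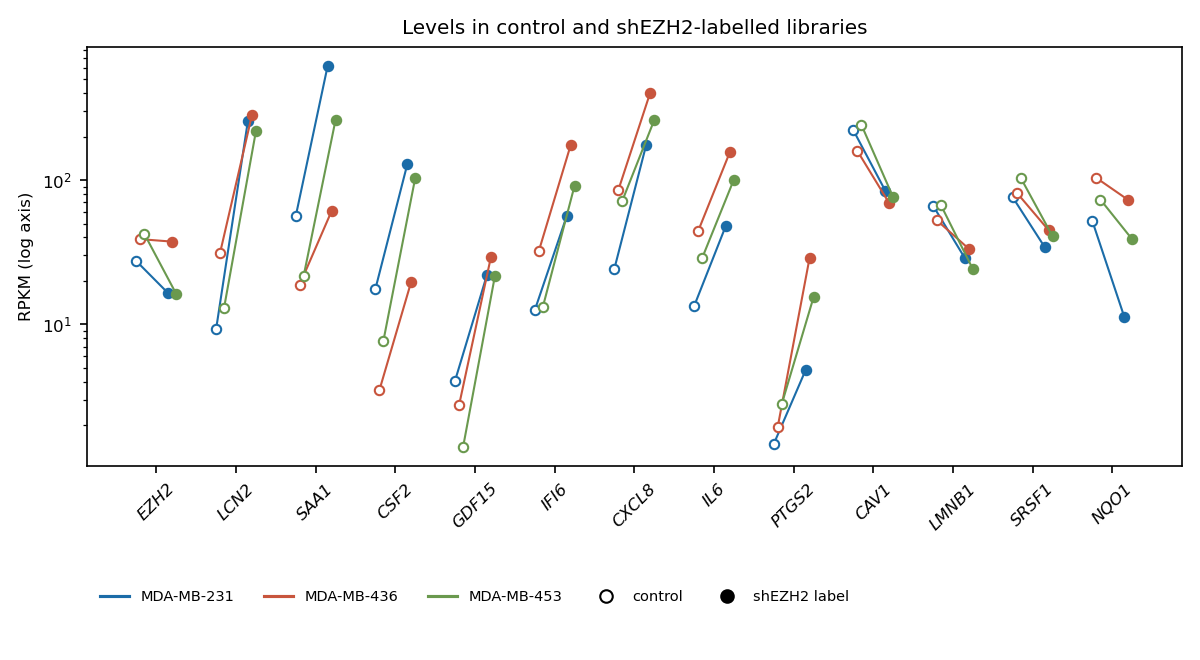
RPKM (log axis) of EZH2 and 12 further genes in each line, with open circles for the control and filled circles for the library labelled shEZH2, joined within a line. EZH2 was nearly level in MDA-MB-436, while LCN2 ran from 9.22 to 31.3 in controls and from 219 to 283 under shEZH2.

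Across the transcriptome more genes were higher than lower under shEZH2. At an adjusted p under 0.05, 1334 of the 12258 genes changed (10.9%): 1032 rose (8.42%) and 302 fell (2.46%). Those shares over all tested genes are the ones to set each count of list members against. With median-ratio scaling in place of the deposited scale the split was 744 higher and 633 lower. The direction was shared by the 3 lines for 1316 of the 1334 genes, and the count was the same for MDA-MB-231 and MDA-MB-436 alone. The test with line as block favours genes that change alike in the lines, so this count is not a separate sign of replication. Over all tested genes, 36.7% were positive and 27.2% negative in both MDA-MB-231 and MDA-MB-436. At least 2-fold changes were found for 217 of the genes that rose and 10 of those that fell. The median log2 fold change over all genes tested was 0.041. All 3 shEZH2 libraries lay above all 3 controls for 879 genes (7.17%) and below them for 569 (4.64%).

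With the first pair of lines alone 21 genes passed (0.171%), of which 19 were higher (0.155%) and 2 lower (0.0163%), and 20 of them also passed with all lines. At an unadjusted p under 0.05 there were 2340 such genes, and 3472 with all lines. Removing the libraries of MDA-MB-231 left 316 genes (2.58%) and removing those of MDA-MB-436 left 1245 (10.2%). Removing only the MDA-MB-453 control left 375 (3.06%), and removing the shEZH2 library of that line left 544. Without the shEZH2 library of MDA-MB-231, 411 rose and 42 fell.

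**Figure D2:**
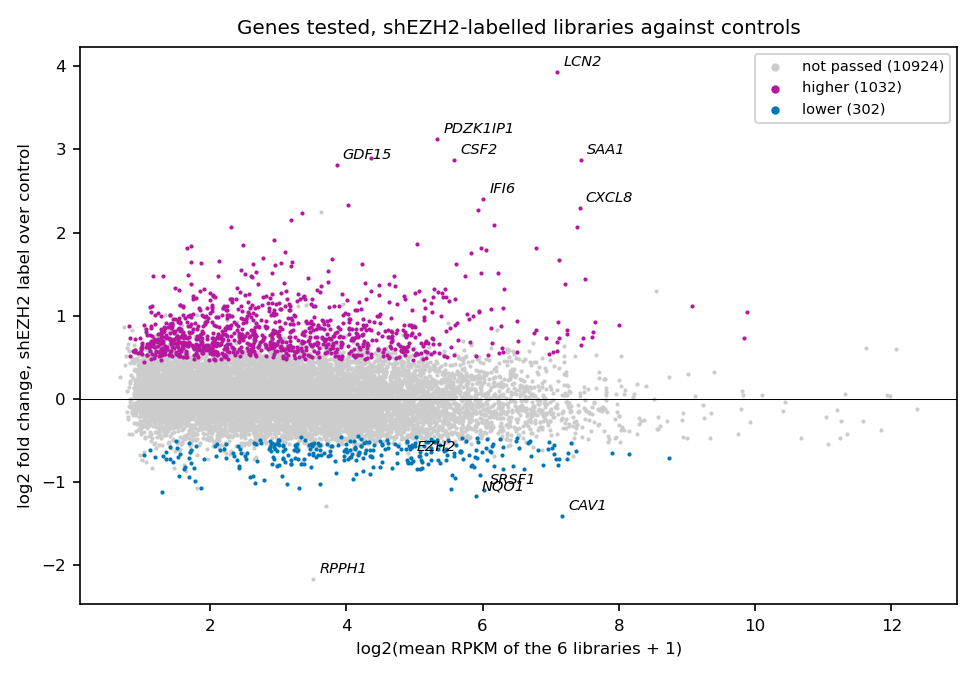
Log2 fold change of each of the 12258 tested genes (shEZH2 label over control) against log2 of the mean RPKM of the 6 libraries plus 1, with the 1032 higher and 302 lower genes coloured. The changes reach much further upwards than downwards, from LCN2 at 3.93 to CAV1 at -1.41, while RPPH1 at -2.16 did not pass.

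LCN2, CXCL8 and IL6 rose, were higher in every line and also passed without the libraries of the third line. LCN2 (chromosome 9, 128149071 to 128153455), which encodes lipocalin 2, an iron-siderophore binding protein of the acute phase, was at 9.22, 31.3 and 13 RPKM in controls and 259, 283 and 219 under shEZH2. Every shEZH2 library was above every control (log2 fold change 3.93 ± 0.59, a 15.2-fold change on the scale of RPKM + 1, adjusted p = 1.84e-05). Without the libraries labelled MDA-MB-453 its log2 fold change was 3.90 (adjusted p = 0.014). CXCL8, the neutrophil chemokine interleukin 8, went from 24.3, 85.6 and 72.1 to 176, 405 and 261 RPKM. Those groups did not overlap, and the gene passed with all lines (2.29 ± 0.40, adjusted p = 4.25e-05) and with MDA-MB-231 and MDA-MB-436 alone (2.52, adjusted p = 0.00916). IL6, a cytokine that drives the acute-phase response, went from 13.3, 44.1 and 28.6 to 48.4, 157 and 101 RPKM. Every line changed by about the same amount for IL6, with log2 fold changes of 1.78, 1.80 and 1.78 (adjusted p = 4.25e-05). It passed in MDA-MB-231 and MDA-MB-436 alone as well (adjusted p = 0.0125).

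Promoter sequence is shown for 4 of these genes because these members rose and their promoters hold a motif named here. Each is the part of the 250 bases before the RefSeq start (GRCh38.p14, plus strand) that lies outside all GENCODE exons of the gene, 5′ to 3′. Capitals mark matches to the NF-kB consensus GGGRNWYYCC or, in LCN2, also to the AP-1 motif TGANTCA. In these, R is A or G, W is A or T, Y is C or T and N is any base. The stretches are chr9:128149265-128149440 for LCN2, chr7:22726950-22727146 for IL6, chr4:73869143-73869392 for CXCL1 and chr2:227813592-227813821 for CCL20.
LCN2: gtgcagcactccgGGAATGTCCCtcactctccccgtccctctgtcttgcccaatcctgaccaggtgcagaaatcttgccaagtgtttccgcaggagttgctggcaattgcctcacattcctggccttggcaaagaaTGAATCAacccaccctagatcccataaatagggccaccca
IL6: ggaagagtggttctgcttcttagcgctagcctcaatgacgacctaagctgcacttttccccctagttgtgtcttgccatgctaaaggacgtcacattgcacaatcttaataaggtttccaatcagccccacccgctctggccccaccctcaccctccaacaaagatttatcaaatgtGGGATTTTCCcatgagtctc
CXCL1: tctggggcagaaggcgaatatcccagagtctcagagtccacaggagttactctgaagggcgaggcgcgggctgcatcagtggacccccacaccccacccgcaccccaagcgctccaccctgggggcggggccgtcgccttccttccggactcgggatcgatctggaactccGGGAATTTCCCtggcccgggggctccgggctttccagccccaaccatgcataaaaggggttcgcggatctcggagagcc
CCL20: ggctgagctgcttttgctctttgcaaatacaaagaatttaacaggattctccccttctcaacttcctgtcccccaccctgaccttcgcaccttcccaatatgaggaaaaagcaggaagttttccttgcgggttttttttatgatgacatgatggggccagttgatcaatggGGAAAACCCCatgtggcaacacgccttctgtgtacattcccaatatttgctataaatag

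Both strands of the 250-base windows were searched, and overlapping matches were counted once per gene. Of 35116 RefSeq windows, 5.21% held the NF-kB consensus and 6.57% the AP-1 motif. Windows were found for 21 of 29 NF-kB target chemokine and cytokine genes, taken whether or not they rose. Of these windows, 12 held the NF-kB consensus and 6 the AP-1 motif. The list was made of known NF-kB targets, so its share of NF-kB matches is not a result of these data. CXCL8 and CSF2, which rose, held 0 exact matches to the NF-kB consensus. The CXCL8 window holds tggaatttcc, which differs from the consensus at the first letter only. Sites that depart from the consensus were not counted, so 0 matches does not show that a promoter lacks an NF-kB site. Of the 15 genes named for the largest rises, 10 had a window, of which 3 held the NF-kB consensus and 3 the AP-1 motif. Of the 15 named for the largest falls, 8 had a window, with 0 NF-kB and 1 AP-1 match. A match is a run of letters and was not examined for binding.

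NF-kB is a transcription factor family that is held inactive in the cytoplasm by inhibitors and drives cytokine genes once released. Of 23 tested members of the list of its target chemokines and cytokines, 16 rose and 0 fell, with a median log2 fold change of 1.11. The haematopoietic growth factor CSF2 went from 17.6, 3.48 and 7.65 to 129, 19.8 and 104 RPKM. The groups did not overlap, although MDA-MB-436 under shEZH2 was close to the highest control, and the log2 fold change was 2.87 ± 0.62 (adjusted p = 0.000219). CSF3, the granulocyte growth factor, went from 9.19, 54 and 18.6 to 38.5, 196 and 109 RPKM, with overlap through the high MDA-MB-436 control (2.09 ± 0.44, adjusted p = 0.000212). CXCL1, another neutrophil chemokine, went from 33.5, 108 and 63.6 to 302, 202 and 285 RPKM, and its groups did not overlap (2.06 ± 0.79, adjusted p = 0.00549). CXCL1 missed the threshold with robust variances (adjusted p = 0.0722) and without the MDA-MB-453 control (0.0707).

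Changes within lines, which were not tested against each other, varied by cytokine. IL1B, a cytokine processed by the inflammasome, had log2 fold changes of 3.30, 0.89 and 1.23, the first of them in MDA-MB-231, where its control was lowest at 5.15 RPKM. CCL20, a chemokine for CCR6-bearing cells, had changes of 0.30, 2.10 and 1.84 and stayed under 0.3 RPKM in MDA-MB-231. CCL5, a T cell chemokine, was at 0.118 RPKM in the MDA-MB-231 control and listed at 0 under shEZH2, against changes of 1.65 and 1.51 in the other lines. The interleukin 1 gene IL1A did not pass (0.61, adjusted p = 0.391), with 1.94 in MDA-MB-231 and 0.05 and -0.15 elsewhere.

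Of the 16 cytokine genes that rose, 2 passed without the libraries labelled MDA-MB-453, CXCL8 and IL6, and the list's median was then 1.01. Without the MDA-MB-453 control alone, 8 passed. NF-kB subunits and feedback regulators were all tested, and 6 of 25 rose and 0 fell (median 0.45). ICAM1, an adhesion molecule, went from 33, 52.1 and 30.1 to 135, 94.1 and 100.7 RPKM with no overlap (1.52 ± 0.44, adjusted p = 0.00119). TNFAIP3, the deubiquitinase A20 that ends NF-kB signalling, went from 5.46, 30.8 and 22.3 to 9.27, 110 and 60 RPKM, and MDA-MB-231 was lowest in both groups (1.29 ± 0.48, adjusted p = 0.0049). The subunit genes RELA (0.21), NFKB1 (-0.17) and NFKB2 (0.50) did not pass. SOD2, the mitochondrial superoxide dismutase, passed also without the MDA-MB-453 libraries (1.33, adjusted p = 0.0486), and 1 gene of this list did so.

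Acute-phase and complement genes followed the same direction, with 9 of 14 tested members higher and 0 lower (median 0.85). SAA1, serum amyloid A, went from 56.2, 18.9 and 21.7 to 619, 61 and 262 RPKM, and every shEZH2 library exceeded every control (2.87 ± 0.68, adjusted p = 0.000393). SAA2, a near-identical gene between which and SAA1 reads may be split, went from 3.43, 0.508 and 2.34 to 81.3, 2.93 and 27.2 RPKM, with MDA-MB-436 below the highest control (2.89 ± 0.80, adjusted p = 0.001). The complement component C3 went from 7.95, 37.6 and 22.2 to 131, 73.6 and 90 RPKM without overlap (2.27 ± 0.85, adjusted p = 0.00503). PDZK1IP1, a small membrane protein gene, had log2 fold changes of 4.33, 0.84 and 4.20, so MDA-MB-436 stood apart. With robust variances C3 (adjusted p = 0.08) and PDZK1IP1 (0.113) missed the threshold, as they did without the MDA-MB-453 control (0.0674 and 0.0839). Without the libraries labelled MDA-MB-453, 1 of the list passed, LCN2, and without those of MDA-MB-231, 4 did. PTGS2, the inducible cyclooxygenase of prostaglandin synthesis, went from 1.47, 1.93 and 2.78 to 4.8, 28.8 and 15.4 RPKM with no overlap (2.23 ± 0.60, adjusted p = 0.000988). PTGES, the prostaglandin E synthase, went from 42.9, 107 and 54.3 to 166, 271 and 186 RPKM and passed with MDA-MB-231 and MDA-MB-436 alone (1.63, adjusted p = 0.0429).

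Interferon-stimulated genes rose in part, and their median was highest in MDA-MB-436. Of 35 tested, 10 rose and 0 fell (median 0.38), and the median change was 0.12, 0.77 and 0.29 in the 3 lines. IFI6, an antiviral mitochondrial protein gene, went from 12.5, 32 and 13.1 to 56, 174 and 91.6 RPKM. Its groups did not overlap and it passed with all lines (2.40 ± 0.35, adjusted p = 1.84e-05) and with MDA-MB-231 and MDA-MB-436 alone (2.24, adjusted p = 0.00916). STAT2, a component of the interferon-activated transcription complex, went from 6.32, 3.44 and 4.9 to 18.8, 7.63 and 12.7 RPKM with no overlap (1.202 ± 0.32, adjusted p = 0.000809). ISG20, an exonuclease gene, went from 1.07, 1.1 and 0.809 to 3, 5.16 and 3.15 RPKM, also without overlap (1.23 ± 0.36, adjusted p = 0.00119).

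Classical members of this list did not pass and went in different directions by line. IFIT2 had log2 fold changes of -0.25, 1.62 and 0.12. IFIT1 had -0.93, 1.14 and -0.36, and ISG15, the ubiquitin-like modifier, had -0.35, 1.40 and 1.42 (adjusted p = 0.0721). The difference between lines was not tested. Removing the MDA-MB-453 libraries left IFI6 as the 1 member that passed, and removing the MDA-MB-453 control left 4. Of 22 tested genes for double-stranded RNA sensing and small-RNA processing, 1 rose, DHX58, the LGP2 helicase (0.72, adjusted p = 0.023). The median of that list was -0.07 and its sign changed with the libraries included.

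Antigen presentation genes of class I and class II rose in part. Of 17 tested MHC class I heavy chain and peptide-loading genes, 7 rose and 0 fell (median 0.48). HLA-B went from 42.6, 13.9 and 23.6 to 90.8, 26.7 and 48.6 RPKM, overlapping because the lines differed in level, with changes of 1.07, 0.89 and 1.01 (adjusted p = 0.00143). HLA-C (0.80) and the light chain B2M (0.59) also rose. Reads from these similar genes may be split between them. Of 12 tested genes of the MHC class II list, 4 rose and 0 fell (median 0.65, with 1.08, -0.0074 and 0.80 in the lines). Among those that rose, HLA-DRB5, HLA-DRB1 and HLA-DPA1 were at most at 0.0457 RPKM in the control and shEZH2 libraries of MDA-MB-436. HLA-DRB1, a class II beta chain, went from 10.8, 0.0457 and 3.85 to 31, 0 and 11.9 RPKM (0.93 ± 0.56, adjusted p = 0.0379), so it was nearly absent from MDA-MB-436. CTSS, the protease that cuts the class II invariant chain, rose in every line (1.48, 1.60 and 1.28) with no overlap and passed with MDA-MB-231 and MDA-MB-436 alone (1.54, adjusted p = 0.0404). Without the MDA-MB-453 libraries 0 class I genes and 1 class II gene passed, where 0.171% of all tested genes did. Without those of MDA-MB-436, 9 class II genes passed, where 10.2% of all tested genes did. That count rests on MDA-MB-231 and the libraries labelled MDA-MB-453, and whether these are independent was not tested. HLA-DRB1 missed the threshold at pseudocounts of 0.1 (adjusted p = 0.154) and 0.5 (0.0501), with robust variances (0.0735) and without the libraries of the first line (0.276) or the third (0.295).

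**Figure D3:**
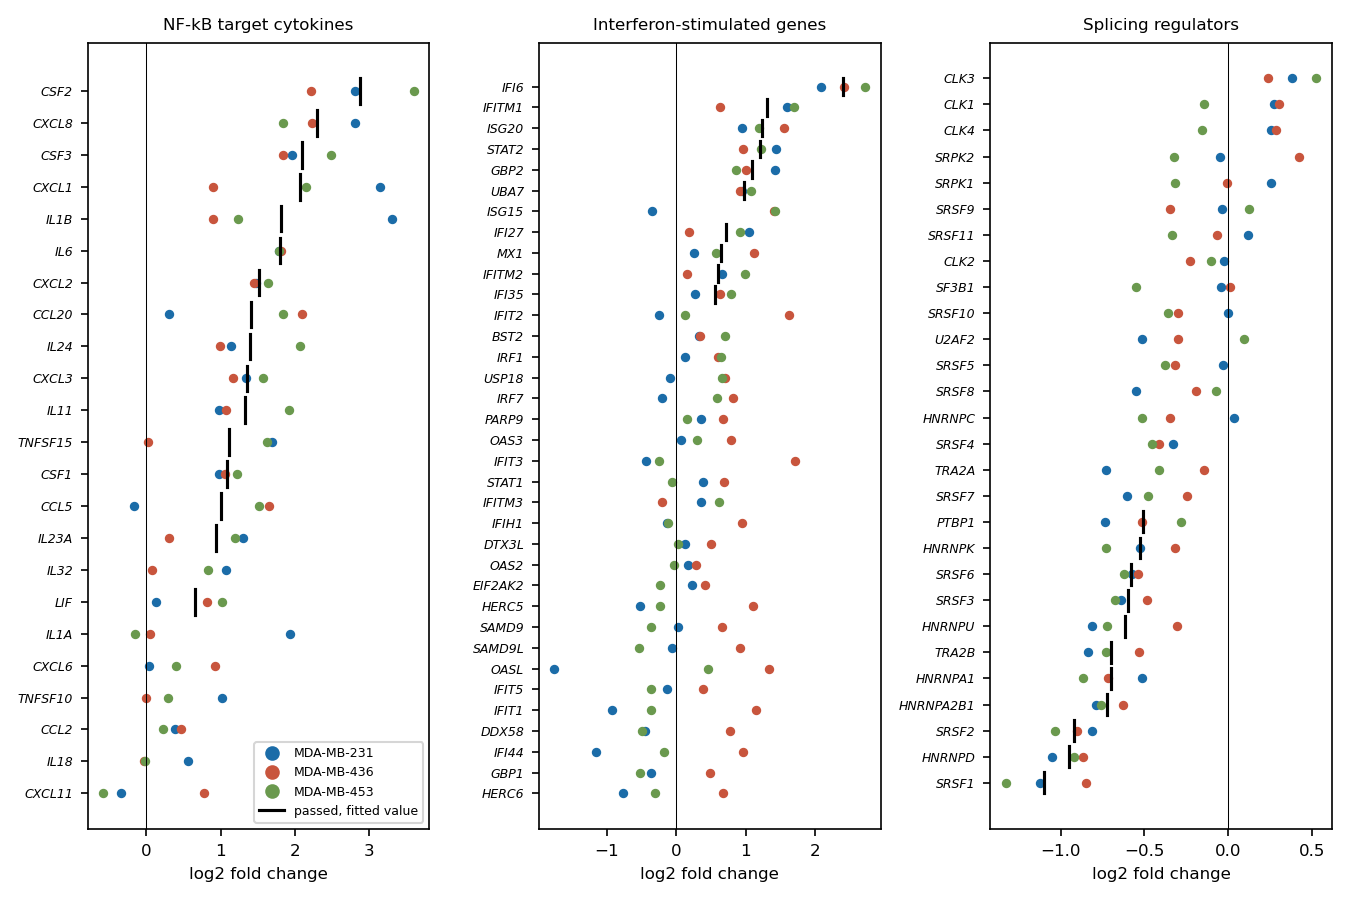
Log2 fold change (shEZH2 label over control) of every tested member of 3 lists in each line, with a black bar at the fitted value of members that passed. The points of the NF-kB target cytokines lie mostly above 0 and those of the splicing regulators mostly below, while in the interferon list MDA-MB-436 lies to the right of MDA-MB-231 for IFIT2 (1.62 against -0.25).

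Autophagy and lysosome genes were the list with the most members that rose, by number and not by share. The share that rose was 40.9%, against 69.6% of the NF-kB target cytokines and 64.3% of the acute-phase and complement genes. Of 44 tested, 18 rose and 0 fell (median 0.47, with 0.39 to 0.52 in single lines). WIPI1, which binds the forming autophagosome, went from 7.96, 2.87 and 6.28 to 23.3, 6.95 and 14.7 RPKM (1.195 ± 0.31, adjusted p = 0.000634) and passed with MDA-MB-231 and MDA-MB-436 alone (1.24, adjusted p = 0.0499). Its groups overlapped, MDA-MB-436 being lowest in both. NPC1, the lysosomal cholesterol exporter, went from 15.9, 11.8 and 15.4 to 34.3, 33.5 and 31.9 RPKM without overlap (1.16 ± 0.33, adjusted p = 0.00119). PSAP, the precursor of sphingolipid activators, went from 218, 481 and 302 to 418, 1087 and 717 RPKM (1.12 ± 0.34, adjusted p = 0.00164). MAP1LC3A (1.27), NEU1 (1.12), the autophagy receptor gene SQSTM1 (0.80) and the protease gene CTSD (0.74) also rose. GPNMB, a lysosome-associated glycoprotein, went from 0.0902, 4.44 and 2.65 to 0.771, 59 and 24.7 RPKM and was low in MDA-MB-231 in both groups (2.33 ± 0.86, adjusted p = 0.0047). GPNMB missed the threshold with robust variances (adjusted p = 0.0777), without the MDA-MB-453 control (0.0757) and without the libraries of that line (0.129). The regulators TFEB (0.46), TFE3 (0.30) and MITF (0.13) did not pass. Without the libraries labelled MDA-MB-453, 1 of the list passed, and without the MDA-MB-453 control, 10.

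Stress-response genes rose in part. Of 30 tested genes of the ATF4-CHOP stress pathway, 8 rose and 1 fell (median 0.17). GDF15, a stress cytokine, went from 4.06, 2.74 and 1.4 to 22, 29.2 and 21.6 RPKM with no overlap (2.81 ± 0.50, adjusted p = 4.25e-05), and from MDA-MB-231 and MDA-MB-436 alone it passed too (2.60, adjusted p = 0.0113). DDIT3, which encodes CHOP, went from 10.1, 12.8 and 9.31 to 15.9, 47.6 and 32.7 RPKM (1.37 ± 0.44, adjusted p = 0.0021). ATF4 (0.14), the amino acid gene ASNS (-0.47) and the chaperone gene HSPA5 (-0.31) did not pass, and PSAT1, of serine synthesis, fell (-0.71). Without the MDA-MB-453 libraries 1 member passed, GDF15, and without the control of that line 3 did.

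CDKN1A, the p21 inhibitor of cyclin-dependent kinases, went from 51.5, 10.3 and 23.8 to 120, 33.4 and 74.8 RPKM, changing by 1.21, 1.61 and 1.61 within lines (1.48 ± 0.34, adjusted p = 0.000392). It missed the threshold without the MDA-MB-453 libraries (1.41, adjusted p = 0.0534). Among 25 tested p53 targets 5 rose (20%, against 8.42% of all tested genes) and 0 fell (median 0.23). MDM2 (-0.24) and BAX (-0.14) did not pass. Among 7 tested inhibitors of cyclin-dependent kinases CDKN1A was the 1 that rose, while CDKN2A (-0.04) and CDKN1B (0.09) did not pass. Of 16 tested BCL2 family genes 4 rose (25%) and 0 fell, the pro-apoptotic HRK (1.10), BBC3 (0.77), BMF (0.74) and BAK1 (0.51). HRK was nearly absent from MDA-MB-231, at 0.00871 RPKM in the control and 0.0239 under shEZH2. Its log2 fold changes were 0.0216, 1.775 and 1.496, so MDA-MB-231 did not share the rise. HRK also missed the threshold with robust variances (adjusted p = 0.127). None of those 4 passed without the MDA-MB-453 control, without the shEZH2 library of the first or the third line or without the MDA-MB-453 libraries.

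Immediate-early and MAP kinase feedback genes, which respond within minutes to signals, rose for 12 of 30 tested and fell for 0 (median 0.46, with 0.15 in MDA-MB-231). DUSP1, a phosphatase that turns off MAP kinases, went from 34.1, 71.4 and 40.1 to 62.9, 157 and 100 RPKM (1.10 ± 0.33, adjusted p = 0.00157). EGR1, a zinc finger factor, had log2 fold changes of -0.25, 3.05 and 2.07 (1.62 ± 0.93, adjusted p = 0.0312), so MDA-MB-231 did not share the rise. FOSL1 (-0.52) and MYC (-0.17) did not pass. Of the 12, 1 passed without the MDA-MB-453 control, 3 without the shEZH2 library of that line and 0 without both and its GSK343 library.

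**Figure D4:**
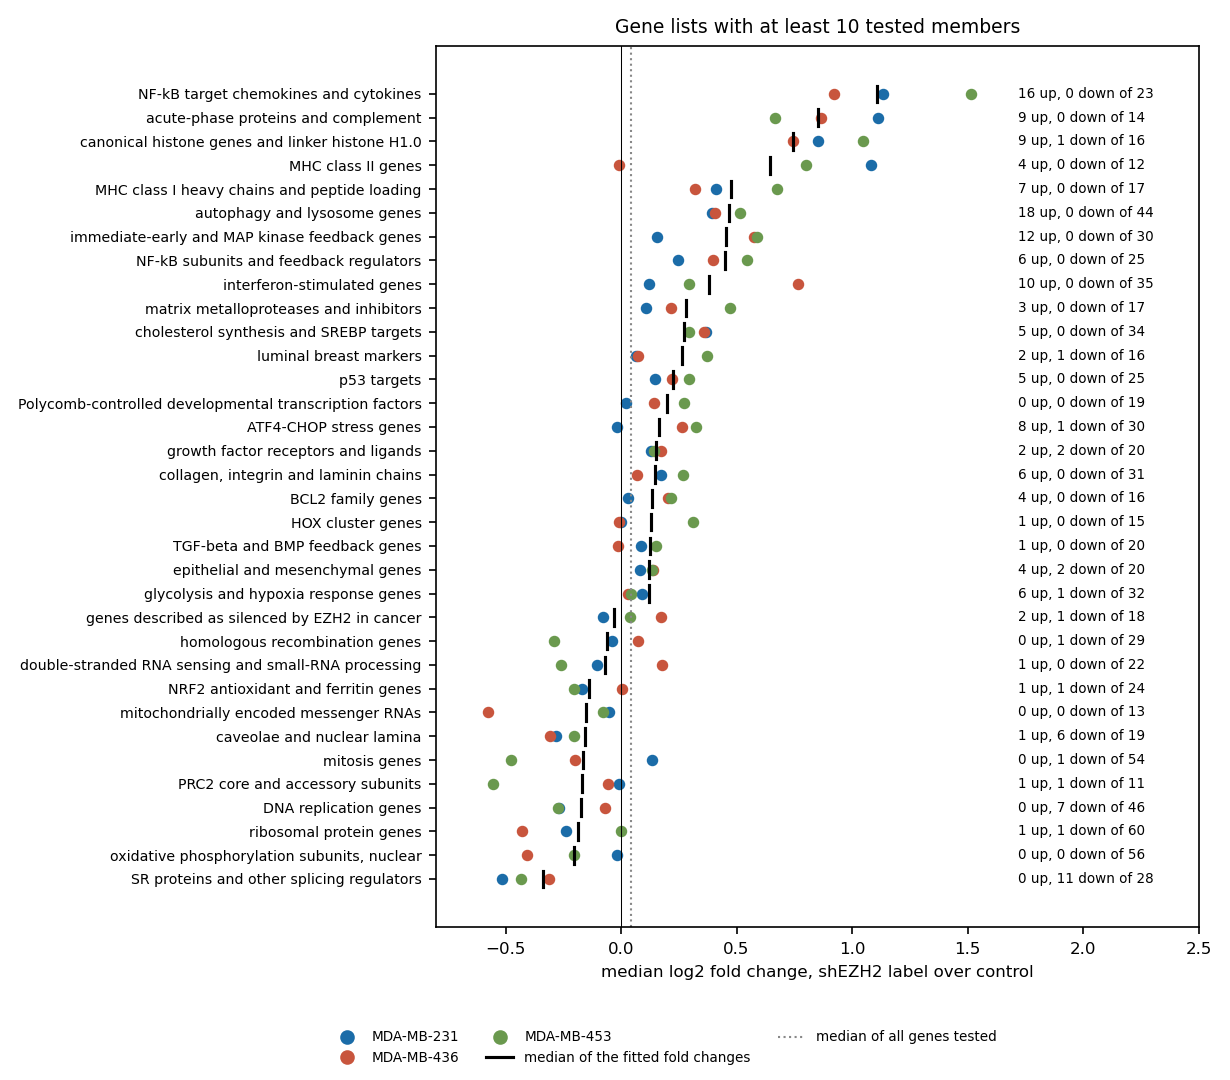
Median log2 fold change (shEZH2 label over control) of each gene list with at least 10 tested members, in each line (points) and for the fitted values (black bars), with the number of members that rose or fell. The dotted line is the median of all tested genes, 0.041, and the lists run from the NF-kB target cytokines at 1.11 to the splicing regulators at -0.34.

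Histone genes with transcripts in these libraries mostly rose. Of 16 tested canonical histone genes and linker histone H1.0, 9 rose and 1 fell (median 0.74), and 23 more of the list were too low to be tested. HIST1H2BD went from 14.9, 1.64 and 9.41 to 52.9, 4.32 and 26.7 RPKM (1.40 ± 0.39, adjusted p = 0.00106). HIST2H2BE went from 1.14, 2.52 and 2.35 to 3.69, 7.76 and 6.44 RPKM with no overlap (1.199 ± 0.37, adjusted p = 0.00159). HIST2H2AC fell, from 2.75, 6.26 and 2.39 to 0, 2.88 and 1.54 RPKM (-1.08 ± 0.53, adjusted p = 0.0165). These genes are near-identical copies, so reads may be split among them. Their main transcripts lack poly(A) tails, and how the RNA was selected for sequencing is not given in the sources used here. Without the MDA-MB-453 libraries 0 passed.

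Genes of lipid and sugar metabolism changed in part. Of tested members, 14.7% changed in the cholesterol list and 21.9% in the glycolysis and hypoxia list, against 10.9% of all tested genes. Of 34 tested cholesterol synthesis and SREBP target genes, 5 rose and 0 fell (median 0.27), among them the desaturase gene SCD (0.93) and the sterol reductase gene TM7SF2 (0.99). Of 32 tested glycolysis and hypoxia genes 6 rose and 1 fell. ENO2, an enolase isoform, went from 16.1, 38 and 22.5 to 37.8, 87.5 and 57.6 RPKM, with near-equal changes of 1.19, 1.18 and 1.32 (1.23 ± 0.32, adjusted p = 0.000743). LDHA, lactate dehydrogenase A, fell (-0.63), and GAPDH (-0.28) did not pass. NQO1, a quinone reductase under NRF2, went from 51.9, 104 and 73.4 to 11.3, 72.8 and 38.8 RPKM (-1.17 ± 0.54, adjusted p = 0.0121), and FTH1, ferritin heavy chain, rose (1.04, adjusted p = 0.0157). Other NRF2 genes did not pass, with TXNRD1 at -0.07 and GCLM at -0.49. None of the genes in this paragraph passed without the MDA-MB-453 libraries, and NQO1 did not pass without those of the first line (-0.70, adjusted p = 0.0853) or without the MDA-MB-453 control (-1.28, adjusted p = 0.0708).

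Matrix and cell-identity genes were mixed. Of 31 tested collagen, integrin and laminin chain genes 6 rose (19.4%, against 8.42% of all tested genes) and 0 fell. They were led by LAMB2, a laminin chain of basement membranes (1.02, adjusted p = 0.00549). Fibronectin, FN1, went from 33.3, 3.52 and 21.7 to 66.4, 6.11 and 38 RPKM (0.80 ± 0.32, adjusted p = 0.00686). Among 20 tested epithelial and mesenchymal genes 4 rose and 2 fell, and those that fell were VIM, the mesenchymal filament vimentin (-0.66, adjusted p = 0.0347), and KRT18, an epithelial keratin (-0.63, adjusted p = 0.0323). The epithelial cadherin gene CDH1 was too low to be tested. The collagenase gene MMP1 did not pass (1.30, adjusted p = 0.0939), going from 281, 3.81 and 175 to 861, 3.56 and 901 RPKM. The receptor tyrosine kinase gene AXL fell, from 334, 58.6 and 181 to 172, 39.8 and 115 RPKM (-0.72 ± 0.33, adjusted p = 0.0124), as did the ligand gene NRG1 (-0.83, adjusted p = 0.00378). EGFR (0.02) and ERBB2 (0.07) did not pass. Without the MDA-MB-453 control 0 of the matrix chains passed, and without the 3 libraries of that line none of the genes named here did.

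Among genes that fell, CAV1 fell the most. CAV1 (chromosome 7, 116524785 to 116561184), the main coat protein of caveolae, went from 222, 160 and 242 to 84.6, 69.2 and 75.9 RPKM. All shEZH2 libraries were below all controls (-1.41 ± 0.33, a 2.66-fold fall on the scale of RPKM + 1, adjusted p = 0.000392), and it passed with MDA-MB-231 and MDA-MB-436 alone (-1.29, adjusted p = 0.0413). Its partner CAV2 fell by 0.71 on the log2 scale (adjusted p = 0.00955). LMNB1, the B-type lamin of the nuclear envelope, went from 66.5, 52.5 and 66.9 to 28.7, 33.3 and 24.1 RPKM with no overlap (-1.09 ± 0.42, adjusted p = 0.00563). TMPO and LBR, which tie chromatin to the lamina, fell by 0.73 and 0.71. In all, 6 of 19 tested caveola and lamina genes fell and 1 rose, EHD2, while LMNA (-0.09) did not pass. LMNB1 missed the threshold without the MDA-MB-453 control (-1.05, adjusted p = 0.0572), without the MDA-MB-231 libraries (-1.04, adjusted p = 0.0549) and without the MDA-MB-453 libraries (-0.91, adjusted p = 0.096).

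Splicing regulators were the list with the most members that fell. SR proteins and heterogeneous nuclear ribonucleoproteins bind pre-messenger RNA and set which exons are used. Of 28 tested, 11 fell and 0 rose (median -0.34, with -0.51, -0.31 and -0.43 in the lines). SRSF1 went from 76, 81.9 and 104 to 34.4, 45 and 40.8 RPKM (-1.10 ± 0.34, adjusted p = 0.00159). SRSF2 went from 59.6, 54.5 and 67.5 to 33.5, 28.7 and 32.4 RPKM (-0.92 ± 0.31, adjusted p = 0.00295). HNRNPA2B1 went from 166, 163 and 173 to 95.8, 105 and 102 RPKM (-0.73 ± 0.30, adjusted p = 0.00807). In all of these the groups did not overlap. HNRNPD (-0.95), HNRNPA1 (-0.70), TRA2B (-0.70) and SRSF3 (-0.60) fell as well, and the SR protein kinase genes SRPK1 (-0.02) and CLK1 (0.14) did not pass. With median-ratio scaling 14 fell. Without the MDA-MB-453 libraries 0 passed, with a median of -0.39 and SRSF1 at -0.99 (adjusted p = 0.0584), and without the MDA-MB-231 libraries 3 did.

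DNA replication genes fell for 7 of 46 tested (15.2%, against 2.46% of all tested genes) and rose for 0 (median -0.17). They included the dUTPase gene DUT (-0.87, adjusted p = 0.00812), the helicase partner GINS2 (-0.82, adjusted p = 0.00752), the helicase subunit MCM6 (-0.84, adjusted p = 0.0274) and the sliding clamp PCNA (-0.52, adjusted p = 0.0379). PCNA was at 122, 114 and 123 RPKM in controls and 86.3, 84 and 78.9 under shEZH2, with no overlap. With median-ratio scaling 12 fell, without the MDA-MB-231 shEZH2 library 1 did, and without the libraries of MDA-MB-231 or of MDA-MB-453 0 did. Mitosis genes had 1 of 54 lower, SPC25, and their median changes differed in sign between lines (0.13, -0.20 and -0.48). MKI67, a proliferation marker, did not pass (-0.23). Homologous recombination genes had 1 of 29 lower, NBN (-0.79), and BRCA1 (0.17) did not pass.

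No nuclear oxidative phosphorylation gene of 56 passed with limma (0 higher, 0 lower, median -0.20), 9 had an unadjusted p under 0.05, and 1 fell with median-ratio scaling. Of 60 ribosomal protein genes 1 rose and 1 fell (median -0.18), and of 13 mitochondrially encoded messenger RNAs 0 passed with limma, also at an unadjusted p under 0.05 (median -0.15).

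Genes held to be targets of EZH2 did not move together. Of 24 genes described as silenced by EZH2 in cancer, 18 were tested, 2 rose, CDKN1A and the ubiquitin ligase gene FBXO32, and 1 fell, SLIT2. Changed members were 16.7% of the 18, against 10.9% of all tested genes. FBXO32 went from 7.64, 21.4 and 16.1 to 15.3, 34.7 and 23.9 RPKM (0.71 ± 0.35, adjusted p = 0.0168), and the groups overlapped. SLIT2, a guidance ligand, went from 7.39, 7.58 and 10.8 to 5.04, 3.92 and 4.63 RPKM with no overlap (-0.78 ± 0.33, adjusted p = 0.00826). The median of the list was -0.03, and its sign changed with the libraries included. CDKN2A (-0.04), DAB2IP (0.11) and RUNX3 (0.20) did not pass.

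HOX genes, the classical Polycomb targets, were tested for 15 of 39, and 1 rose (6.67%, against 8.42% of all tested genes). HOXB9 went from 15.2, 0.923 and 7.96 to 24.2, 3.05 and 15.1 RPKM (0.85 ± 0.31, adjusted p = 0.00425). Of 38 further developmental transcription factor genes under Polycomb control 19 were tested and 0 passed with limma, with 4 at an unadjusted p under 0.05. Their median was 0.20, and 10 were higher in all 3 lines. GATA6 (0.35), MSX1 (0.49) and FOXA2 (0.59) are examples. Without the MDA-MB-436 control 2 of them rose and 1 fell, where 8.92% of all genes rose and 3.8% fell. Silent genes were counted as well. Under 0.1 RPKM in all 3 controls and at least 1 RPKM in all 3 shEZH2 libraries there were 0 genes, and 0 in the reverse direction. In MDA-MB-231 and MDA-MB-436 alone 4 genes met the first rule and 3 the reverse, 0 of them protein-coding. Without the libraries labelled MDA-MB-453 none of the genes named in these lists passed.

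Noncoding genes are described by type, with no test between types. Of 305 antisense genes 39 rose and 3 fell (median 0.15), of 283 lincRNAs 35 rose and 5 fell (median 0.14), and of 10992 protein-coding genes 908 rose and 275 fell (median 0.036). NEAT1, the scaffold of paraspeckles, went from 3.12, 5.31 and 4.79 to 5.4, 14.3 and 9.65 RPKM, with no overlap (0.93 ± 0.35, adjusted p = 0.005), and MALAT1 rose (0.63, adjusted p = 0.034). Of 37 snoRNA genes 0 rose and 2 fell (5.41%), among them SNORA73B, from 7.61, 9.64 and 15.2 to 4.56, 3.58 and 5.9 RPKM (-1.03 ± 0.45, adjusted p = 0.0103). Without the libraries of the third line none of these passed, with adjusted p = 0.096 for NEAT1, 0.239 for MALAT1 and 0.147 for SNORA73B. MALAT1 also missed the threshold with median-ratio scaling (0.0853), and SNORA73B without the MDA-MB-453 control (0.0871). Low genes rose more often than they fell. Under a mean of 5 RPKM 9.59% rose and 0.947% fell, and at 100 RPKM or more 8.24% rose and 6.47% fell.

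Within single lines, where 1 library stands against 1 and no test is possible, changes of at least 2-fold were counted on the scale of RPKM + 1. There were 353 genes higher (2.88%) and 111 lower (0.906%) in MDA-MB-231. MDA-MB-436 had 240 higher (1.96%) and 35 lower (0.286%), while the last line had 586 higher (4.78%) and 88 lower (0.718%). MDA-MB-231 and MDA-MB-436 shared 55 genes that were higher, which is 15.6% of those of MDA-MB-231 and 22.9% of those of MDA-MB-436. They shared 6 that were lower, 5.41% and 17.1%. Across the 12258 genes the changes of these lines had a Pearson r of 0.43, as a description, since genes are not independent and each line's change rests on 2 libraries. Both were positive for 36.7% of genes and both negative for 27.2%.

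**Figure D5:**
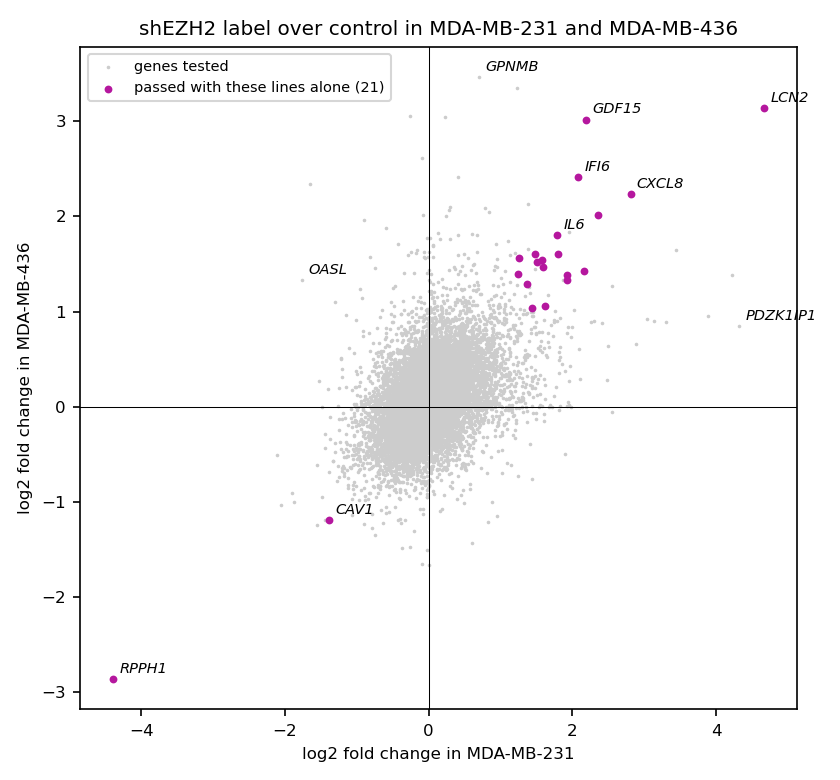
Log2 fold change (shEZH2 label over control) in MDA-MB-436 against that in MDA-MB-231 for each tested gene, with the 21 genes that passed in these lines alone in colour. LCN2 is at 4.67 and 3.14, CAV1 at -1.38 and -1.19, and PDZK1IP1, which did not pass there, at 4.33 and 0.84.

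The 21 genes that passed in MDA-MB-231 and MDA-MB-436 alone included growth factor and matrix genes beside those already named. ECM1, an extracellular matrix protein gene, went from 28.3, 22.4 and 19.1 to 82.2, 66.4 and 70.1 RPKM with no overlap, and its log2 fold change was 1.51 in these lines (adjusted p = 0.0134) and 1.62 in all. MDK, the growth factor midkine, went from 15.9, 52.5 and 18.6 to 63.5, 138 and 84.3 RPKM without overlap (1.66, adjusted p = 0.0222). TXNIP, which inhibits thioredoxin, went from 63.1, 124 and 104 to 191, 362 and 239 RPKM (1.57, adjusted p = 0.0405). SAT1, the enzyme that acetylates spermidine and spermine, went from 16.8, 36.3 and 24.6 to 78.4, 99.3 and 81.3 RPKM (1.79, adjusted p = 0.0272). RPPH1, the RNA of ribonuclease P, was 1 of the 2 that fell. It was at 21.8 and 6.26 RPKM in the controls of these lines and 0.0857 and 0 under shEZH2 (-3.63, adjusted p = 0.0140), while the library of MDA-MB-453 labelled shEZH2 had 22 RPKM against 12.6 in its control. With that line included it did not pass (adjusted p = 0.084). TXNIP and SAT1 were chosen for mention after their values were seen.

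A few genes changed at least 2-fold in 1 line and under 1.2-fold in the others, and they too are descriptions of 1 library against 1. There were 9 higher and 9 lower such genes in MDA-MB-231, 8 and 3 in MDA-MB-436 and 33 and 4 in the remaining line. In MDA-MB-231 the lipid phosphatase gene FIG4 went from 4.05 to 10.5 RPKM and the calcium-binding protein gene CALB2 from 78 to 36.2. In MDA-MB-436 IFIT2 went from 2.32 to 9.22 RPKM and the collagen gene COL13A1 from 4.27 to 0.858. In MDA-MB-453 ZNF579 went from 5.79 to 16 RPKM, and CASC5, a kinetochore gene, went from 16.8 to 7.85.

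The libraries labelled shEZH2 and GSK343 were not separated by the test. With limma 0 of 12258 genes passed (0%), and 273 had an unadjusted p under 0.05. EZH2 was 1.49 ± 0.46 higher on the log2 scale under the label shEZH2 (adjusted p = 0.129), since the libraries labelled GSK343 held 5.77, 7.53 and 7.99 RPKM, below every shEZH2 library. The transcript was thus lowest under the label of the enzyme inhibitor, and directions given here are those of the libraries as labelled. Over the 15 genes with the largest rises the difference ran from -0.34 for CSF3 to 0.76 for SPINT1, with a median of 0.06, and 2 had an unadjusted p under 0.05. Over the 15 with the largest falls it ran from -0.56 for SNORA73B to 0.39 for LMNB1, with a median of -0.14, and again 2 had such a p. It was 0.21 for LCN2, -0.16 for IL6 and 0.09 for CAV1. A difference that misses the threshold does not show that the libraries are alike: for LCN2 the half-width was 0.59. Both labels share their 3 controls, so the changes against control are not independent of each other.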

How the data were processed

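The members and gene lists were chosen with earlier results of these data known. The authors deposited RPKM values per gene, made with STAR, HTSeq and GRCh38 per the submitters' processing notes. The sources do not give whether counting used strand, and reads of EZH2, IFI6, IL6, CAV1, SRSF1 and other genes that overlap a gene on the opposite strand cannot be told apart from their partner's. Reads per library were worked out from the smallest RPKM steps. Coordinates and gene types come from GENCODE 29, which holds 92.5% of the identifiers in the same version.

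From these values log2(RPKM + 1) was fitted with limma 3.58.1 (R 4.3.3) over all 9 libraries, with group and line as terms (4 residual degrees of freedom) and Benjamini-Hochberg adjustment over 12258 genes at 0.05. A fold change on this scale understates changes of low genes. The lines are the replicates, and those labelled MDA-MB-453 may not be independent of the others. The p-values set each change against a spread between libraries labelled as different lines, to which the GSK343 libraries add. That spread is drawn towards the spread of other genes (8.67 prior degrees of freedom), so it is only in part a gene's own variation between lines. Line is the block because same-numbered libraries share a line. Deviations of control and shEZH2 libraries from their group means correlated at 0.89, 0.89 and 0.377. Within a group the deviations of the lines offset each other, so these values are not independent.

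Named genes are EZH2, EZH1, SUZ12 and EED, at most 15 per direction with the widest change among those that passed with 1 sign in all lines, at most 4 per list by p, at most 8 per direction that passed without MDA-MB-453, 3 per direction against GSK343 and at most 5 per direction changed in 1 line. Other members are examples chosen after their values were seen. Alternatives were other pseudocounts, filters, scalings and variance models, no block, the 6 libraries alone, and leaving out each library or line. The fit was tested on simulated data.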

Additional observations from a re-analysis of the deposited data

Results flagged for a closer look

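OASL, an interferon-induced gene related to the oligoadenylate synthetases, moved in opposite directions in MDA-MB-231 and MDA-MB-436, by at least 2-fold in each. Levels in RPKM were 10.1, 6.73 and 6.95 for the controls, and 2.29, 18.5 and 9.89 for the libraries labelled shEZH2, with MDA-MB-453 as the last value each time. The log2 fold changes were -1.76, 1.33 and 0.45, so that MDA-MB-231 lay -3.09 from MDA-MB-436. With 1 library per line and condition the difference was not tested. OASL was the 1 protein-coding gene among 3 genes with such opposite changes.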

How the results depend on the processing

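The count of 1334 genes for shEZH2 against control stayed within 1.5 times under both other pseudocounts, a mean RPKM of at least 5, both other scalings, both other variance models and the 6 libraries alone (1615). It was 25 with no filter on low values, 2 with no replicate block, which drops the pairing by line, 316 without the libraries of MDA-MB-231 and 21 without those labelled MDA-MB-453. Leaving out single libraries gave 375 to 1560. Robust variances ended 10 calls of named genes. For MDA-MB-231 and MDA-MB-436 alone the 21 genes became 67 at a pseudocount of 0.1, 0 with no filter, 93 at a mean of at least 5, 11 with median-ratio scaling, 74 with robust variances and 0 with no replicate block. Leaving out single libraries gave 18 to 435 there, with the lone library assumed to vary like the other groups. Against GSK343 the count of 0 became 1 at a mean of at least 5 or with common-sum scaling, 13 without MDA-MB-436, 3 without MDA-MB-453 and 0 to 4 without single libraries. Counts of at least 2-fold changes within lines, with settings chosen after seeing the data, became 977 (first line), 760 (MDA-MB-436) and 1319 (MDA-MB-453) at a pseudocount of 0.1. In MDA-MB-436 they were 451 at 0.5, and at a mean of at least 5 they were 271 in MDA-MB-231 and 141 in MDA-MB-436. Fewer genes were tested at that mean and more without a filter. For the other settings the cause was not tested.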
